A study of Mus musculus with 40 samples.

Results

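Gene expression in the left somatomotor cortex was compared between 3xTg-AD mice killed 30 min after their first closed head injury (CHI) and sham mice. The comparison held 7 of the 40 sequenced samples. The injured group, 1xCHI 0.5 h, held samples 13, 14 and 27 (n = 3), and Sham held samples 6, 20, 35 and 39 (n = 4), each named by the running number in its title. All 7 mice were females of 2 to 4 months that carried the 3xTg-AD alleles on a C57BL/6J background, among them human APP and human tau transgenes driven by the neuronal Thy1.2 promoter, so the sham mice had the transgenes too and no wild-type mouse was compared. The injury was a weight dropped onto the intact skull under isoflurane. Sham mice received the anesthesia without the impact, and the sham group pools mice given different numbers of exposures, which the labels used here do not give for each mouse. Each sample was the bulk tissue of 1 mouse. Unless another fit is named, the spread between mice was estimated within groups over all 39 samples analysed. The p-values and standard errors (SE) thus do not measure the spread among these 7 mice alone.

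A blow to the head stretches neurons and vessels, releases glutamate and potassium, and depolarizes cortical tissue within seconds. Calcium entry then activates kinases that switch on immediate early genes, which need no new protein synthesis and whose mRNA appears within minutes and decays within hours. Glucocorticoid target genes and feedback inhibitors of NF-kB signaling belong to the same early wave, whereas cytokine mRNAs and glial reactivity genes are usually found to build up over the following hours.

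The 7 libraries held 17903157 to 27859547 estimated counts, and 15224 of the 55539 listed features passed the filter on low counts. Levels are given as counts per 1000000 counts (CPM), scaled by edgeR's TMM factors. Sample 27 stood apart from the other injured mice. On the first principal component of the 39 samples analysed in the series, which held 33.1% of their variance, samples 13 and 14 scored -41.23 and -28.69 and sample 27 scored 17.55, inside the sham range of 3.67 to 25.83. The mean chi-square per gene was 13.0 between samples 13 and 14, 85.5 and 59.1 between each of them and sample 27, and 7.53 to 25.6 between sham pairs. Sample number split with this: samples 13, 14 and Sham 6 were numbered 18 or lower, and sample 27 and Sham 20, 35 and 39 were numbered 19 or higher. Most other groups split alike. In 7 of the 9 groups with mice in both ranges of numbers, Sham and 1xCHI 0.5 h among them, every mouse numbered 18 or lower scored below every other mouse of its group, for example -22.15 and -31.01 against 29.58 in 1xCHI 4 h, though Sham 6 and Sham 20 were nearly level (3.67 and 3.71). The labels do not say what the number stands for, and its part in the differences below was not tested beyond the values given within each range and with the range as a term. Values are therefore given for each mouse, with the difference of samples 13 and 14 against Sham 6 and that of sample 27 against Sham 20, 35 and 39 beside the fit over all. Red blood cell markers, 5 hemoglobin and heme synthesis genes, summed to 514, 503.9 and 86.2 CPM in samples 13, 14 and 27 and to 172.1 to 275.6 CPM in Sham. Markers of striatum, the region beneath this cortex, summed to 924.8 CPM in Sham 39 and to 177.3 to 235.8 CPM in the other 6 samples. The part of either in the results below was not tested.

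By edgeR's quasi-likelihood test, with p-values adjusted by Benjamini and Hochberg's method over all 15224 genes, no gene differed between 1xCHI 0.5 h and Sham (0%), and the smallest adjusted p was 0.167. At unadjusted p under 0.05, 1976 genes were higher after injury (13.0%) and 1021 were lower (6.71%). DESeq2 called 28 genes at adjusted p under 0.05. In 701 genes (4.60%) every injured mouse lay above every sham mouse, and in 628 genes (4.13%) every injured mouse lay below. Without sample 27, edgeR's quasi-likelihood test (Benjamini-Hochberg adjusted p under 0.05) called 1984 genes higher (13.0%) and 1617 lower (10.6%), or 3601 in all. The count of calls thus rested on that 1 mouse. The 2 injured mice left in that fit were both numbered 18 or lower, whereas 3 of the 4 sham mice were numbered 19 or higher. Injury and the range of numbers therefore could not be fully told apart in the fits without sample 27, here and below. At unadjusted p under 0.05, 340 genes were higher and 236 lower without sample 13, 1102 and 338 without sample 14, and 578 were lower without Sham 39. With only the 7 samples fitted, 1390 were higher and 938 lower. With only the 7 samples and a term for numbers 18 or lower, 396 were higher and 612 lower, so the balance turned. Scaling by library size alone likewise turned the split of the unadjusted counts to 1111 higher and 2114 lower and moved the median of all genes to -0.06 on the log2 scale. Since no gene passed after adjustment, single genes called higher or lower than Sham in what follows are those at unadjusted p under 0.05, unless another threshold is named.

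Transcript length moved with the difference. Genes were put into 4 groups of nearly equal size by their longest annotated transcript. In the shortest group, 30.3% were higher and 1.31% lower at unadjusted p under 0.05, and in the longest group 2.68% were higher and 14.6% lower. The median log2 difference went over the 4 groups from 0.23 through 0.04 and -0.06 to -0.17. The gap between short and long genes was 0.65 and 0.49 on the log2 scale in samples 13 and 14, -0.02 in sample 27, and between -0.09 and 0.11 in the sham mice. RNA quality is not given for each mouse in the sources used here, and its part was not tested. Lists of short genes, such as ribosomal protein genes, and of long genes, such as channels, are therefore given below also with each sample's trend over length and GC content taken out, an alternative chosen after seeing the data.

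**Figure D1:**
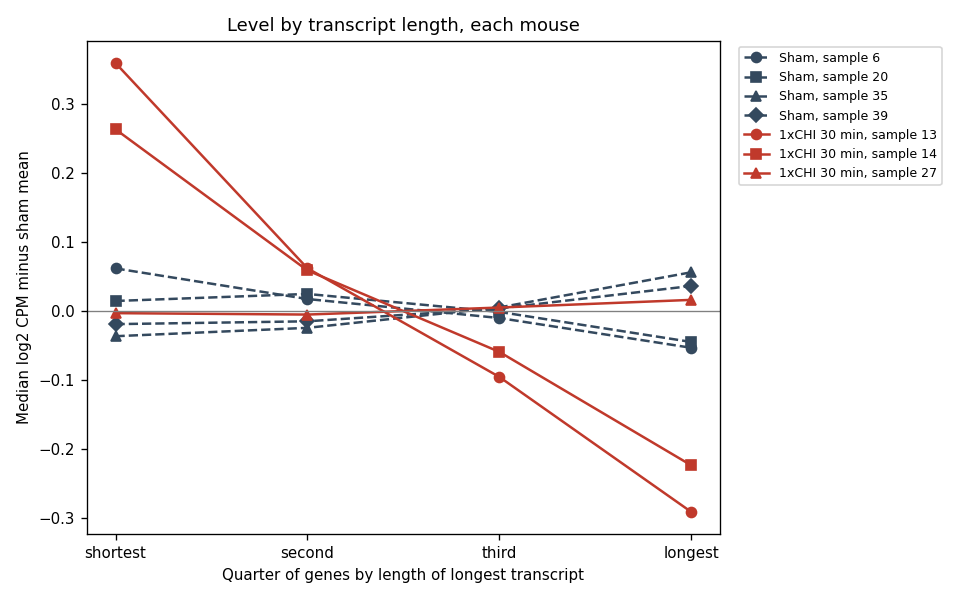
Median log2 CPM of each mouse relative to the sham mean, over 4 groups of genes ordered by the length of the longest transcript (x axis, shortest to longest; solid red lines, 1xCHI 30 min; dashed blue lines, Sham). Samples 13 and 14 slope down from 0.36 and 0.26 in the shortest group to -0.29 and -0.22 in the longest, and sample 27 stays between -0.00 and 0.02, near the sham mice.

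The mRNAs of the mitochondrial genome differed in the same direction throughout. This small circular genome encodes 13 subunits of the respiratory chain and ATP synthase and is transcribed inside the organelle, apart from the nucleus. All 13 were higher after injury at unadjusted p under 0.05, against 13.0% of all genes, and in 12 of 13 the injured and sham mice did not overlap, against 4.60%. The median log2 difference was 0.56, beside -0.00 over all genes. In bulk tissue, more mitochondria, more RNA per mitochondrion and less of other RNA cannot be told apart, nor can fewer cells of a type and less RNA per cell.

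mt-Nd2, a complex I subunit gene at chrM:3914-4951, stood at 5960, 6185 and 4268 CPM in samples 13, 14 and 27 and at 3477, 3557, 3689 and 3682 CPM in Sham 6, 20, 35 and 39. The 4 sham mice were close together and every injured mouse was above them, with sample 27 nearest to them (log2 difference 0.60 ± 0.13 SE, unadjusted p = 5.11e-05). mt-Co1, which encodes a catalytic subunit of cytochrome c oxidase, stood at 26590, 27060 and 19390 CPM after injury and at 16130, 19340, 16610 and 16300 CPM in Sham, so that sample 27 and Sham 20 were nearly level. mt-Nd6, the only protein gene on the other strand of the molecule (chrM:13552-14070), stood at 77.2, 79.1 and 81.7 CPM after injury and at 47.6, 40.7, 55.7 and 60.8 CPM in Sham. For mt-Nd6, unlike mt-Nd2, sample 27 was the highest of the 7 mice (log2 difference 0.63 ± 0.15, unadjusted p = 0.000171).

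The remaining members had log2 differences of 0.51 to 0.65. mt-Co2 was the 1 gene with an overlap, at 7121, 7146 and 4510 CPM after injury and 4196, 4596, 3983 and 4356 CPM in Sham. Sham 20 was low in mt-Atp8 (137.2 CPM, other sham mice 472.2 to 527.5) and in mt-Nd4l (140.8 CPM, other sham mice 288.4 to 338.3), which overlap mt-Atp6 and mt-Nd4, so that reads can be split between neighbours. The 13 genes together took 8.37%, 8.43% and 6.06% of the counts of samples 13, 14 and 27 and 5.24% to 5.80% of those of the sham mice. The list median was 0.72 for samples 13 and 14 against Sham 6 and 0.18 for sample 27 against Sham 20, 35 and 39. With all 3 injured mice kept, DESeq2 called 6 of the 13 higher at adjusted p under 0.05, beside 0.145% of all genes. Without sample 27 all 13 were called by edgeR's quasi-likelihood test at adjusted p under 0.05, from 0.00403 for mt-Nd2 to 0.0486 for mt-Atp8. With the length and GC trends taken out the median was 0.25, 7 of 13 were higher at unadjusted p under 0.05, beside 11.8% of all genes in that setting (4.50% were lower), and mt-Nd3 turned to -0.06.

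**Figure D2:**
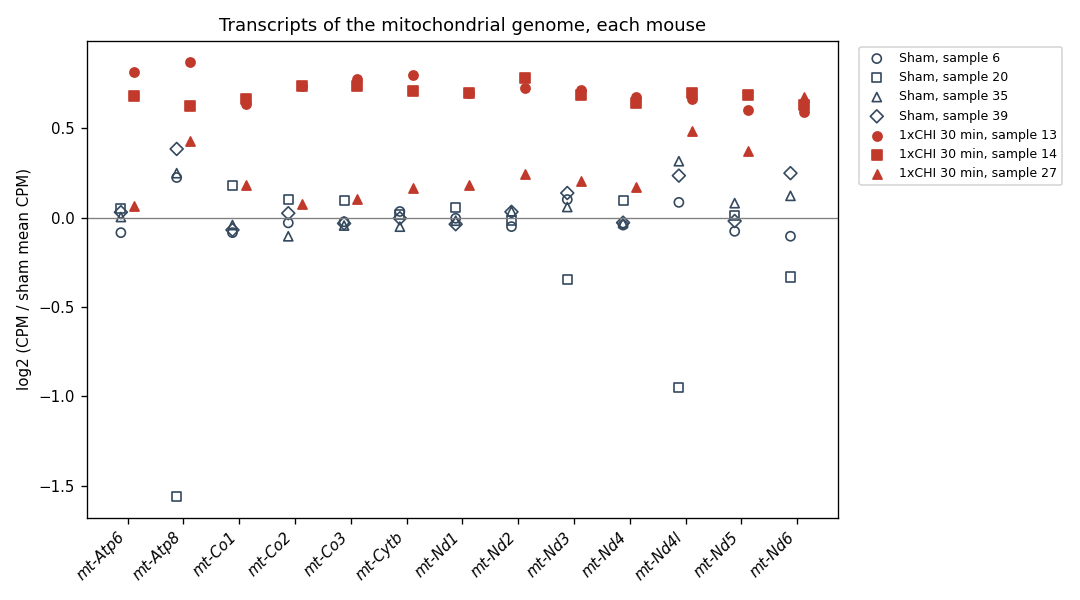
Level of each of the 13 mitochondrial genome mRNAs in each mouse as log2 of its CPM over the sham mean (open symbols, Sham; filled red symbols, 1xCHI 30 min). Samples 13 and 14 lie above every sham mouse in all 13 genes, and sample 27 lies between them and the sham mice in most, highest in mt-Nd6 at 81.7 CPM.

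Nuclear genes of translation and of oxidative phosphorylation were higher in samples 13 and 14 and near sham in sample 27. Of 83 cytosolic ribosomal protein genes tested of 87 listed, 70 were higher at unadjusted p under 0.05 and none lower, beside 13.0% and 6.71% of all genes, with a median log2 difference of 0.52. Rpl38, of the large subunit, stood at 139.5, 122.2 and 66.8 CPM in samples 13, 14 and 27 and at 61.4, 45.1, 60.9 and 70.5 CPM in Sham (0.88 ± 0.23, unadjusted p = 0.000693). Sample 27 lay within the sham range of Rpl38. Only 6 of the 83 did not overlap between the groups, beside 4.60% of all genes, namely Rpl23, Rpl35, Rps25, Rps15a, Rpl23a and Rps27.

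Of 78 nuclear-encoded respiratory chain genes tested of 79 listed, 60 were higher and 1 lower at unadjusted p under 0.05, beside 13.0% and 6.71% of all genes, with a median of 0.44, and 12 did not overlap, all higher, beside 4.60%. Cox7b, a cytochrome c oxidase subunit, stood at 152.4, 131.4 and 99.5 CPM after injury and at 96.9, 87.2, 94.0 and 92.6 CPM in Sham (0.46 ± 0.13, unadjusted p = 0.000921). Every injured mouse was above every sham mouse for Cox7b, sample 27 by a small margin. The 1 lower gene was Sdha, the flavoprotein of complex II, at 261.1, 285.3 and 333.1 CPM after injury and 342.1, 326.4, 329.6 and 324.1 CPM in Sham. In the proteasome, which degrades ubiquitin-tagged proteins, 21 of 37 subunits were higher and none lower, with a median of 0.18, and 12 of the 37 tested did not overlap, beside the same 13.0% and 4.60% of all genes. Psmb2 was among them, at 43.6, 39.8 and 32.2 CPM after injury and 29.6, 31.6, 27.6 and 29.9 CPM in Sham (0.38 ± 0.11).

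For samples 13 and 14 against Sham 6 the medians were 0.70 for the ribosomal, 0.54 for the respiratory and 0.26 for the proteasome list. For sample 27 against Sham 20, 35 and 39 they were 0.02, 0.03 and 0.06. Without sample 27, 68 ribosomal and 59 respiratory genes were called higher at adjusted p under 0.05 by edgeR's quasi-likelihood test, beside 13.0% of all genes. Without sample 13, the counts higher at unadjusted p under 0.05 were 13 ribosomal, 15 respiratory and 5 proteasome genes, beside 2.23% of all genes, and without sample 14 they were 34, 49 and 13, beside 7.24%. Over the 7 samples with a term for numbers 18 or lower they were 25, 13 and 6, beside 2.60%. With the length and GC trends taken out the medians over all 7 mice were 0.24, 0.10 and 0.06. Ribosomal protein genes have many processed pseudogenes, so reads may be split between copies.

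Immediate early genes split the 3 injured mice. Of 25 transcription factor genes tested of 27 listed, 6 were higher and none lower at unadjusted p under 0.05, beside 13.0% higher over all genes, with a median log2 difference of 0.45. The median was 1.15 for samples 13 and 14 against Sham 6 and -0.51 for sample 27 against Sham 20, 35 and 39. Of 30 effector and feedback genes, 5 were higher and none lower, a share near that of all genes, with a median of 0.32, and its median was 0.85 and -0.19 in the same subsets of mice. Over the 7 samples alone, 3 transcription factor and 6 effector genes were higher, beside 1390 of all 15224 genes. Over the 7 samples with a term for numbers 18 or lower, 1 gene of each list was higher, near the 2.60% of all genes. Without sample 13, 4 and 2 were higher, beside 2.23% of all genes, and without sample 14, 2 and 3 were, beside 7.24%. Without Sham 20, 8 and 11 were higher, beside 13.1%, with medians of 0.80 and 0.45. Without sample 27, 9 and 13 were higher, beside 20.4%, of which 6 and 8 were called at adjusted p under 0.05 by edgeR's quasi-likelihood test, beside 13.0% of all genes.

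Klf4, a zinc finger transcription factor (chr4:55527143-55532466), had the smallest p of these genes. It stood at 29.8, 49.2 and 4.43 CPM in samples 13, 14 and 27 (27.8 ± 22.5, SD, n = 3) and at 5.78, 8.39, 6.77 and 4.85 CPM in Sham (6.45 ± 1.52, SD, n = 4). The values of samples 13 and 14 were far above every sham mouse and sample 27 was below all of them, so the groups overlapped (2.10 ± 0.43, unadjusted p = 2.49e-05). Without sample 27 the log2 difference was 2.61, with an adjusted p of 0.000124 by edgeR's quasi-likelihood test.

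Among the AP-1 genes, Fosb, a Fos family partner of the Jun proteins, stood at 61.1, 116.2 and 12.9 CPM after injury and at 7.97, 21.9, 16.6 and 11.3 CPM in Sham (2.13 ± 0.69, unadjusted p = 0.00417). Sample 27 lay within the sham range of Fosb. Fosl2, another Fos family gene, stood at 69.2, 70.0 and 32.5 CPM after injury and at 31.1, 49.4, 42.7 and 19.4 CPM in Sham (0.68 ± 0.32, unadjusted p = 0.0402). Fos itself stood at 76.7, 111.2 and 14.3 CPM and at 18.3, 73.6, 33.9 and 18.7 CPM, with Sham 20 near sample 13, and did not pass (unadjusted p = 0.224). Atf3, a stress-induced AP-1 partner, was below the filter and was not tested, at 8.36, 11.7 and 0.587 CPM after injury and 0.394 to 0.786 CPM in Sham. Jund (0.39 ± 0.18) and Klf2 (1.17 ± 0.45) were the other genes of this list at unadjusted p under 0.05 beside Maff.

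Maff, a small Maf protein that pairs with other leucine zipper factors, was the only gene of the transcription factor list in which the groups did not overlap. It stood at 4.71, 5.02 and 2.03 CPM after injury and at 1.42, 0.929, 0.699 and 1.01 CPM in Sham (1.95 ± 0.57, unadjusted p = 0.00162). Sample 27 was above every sham mouse here. The depolarization-driven genes Npas4 and Arc, by contrast, overlapped throughout. Npas4 stood at 39.9, 26.6 and 12.3 CPM after injury and at 15.5, 38.6, 27.2 and 19.2 CPM in Sham, and Arc at 302.0, 200.1 and 72.1 CPM and at 121.5, 486.1, 215.4 and 179.8 CPM, with Sham 20 the highest of the 7 mice for Arc. Sham 20 was also high in Junb, at 131.2 CPM beside 46.8 to 53.2 CPM in the other sham mice and 158.5, 133.5 and 35.2 CPM after injury.

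Among effectors and feedback genes, Rasd1, a Ras-related GTPase induced by activity and by glucocorticoids (chr11:59963181-59964944), stood at 10.4, 12.1 and 4.16 CPM after injury and at 1.69, 3.96, 3.39 and 4.06 CPM in Sham. The groups did not overlap, though sample 27 was close to Sham 39 (1.44 ± 0.37, unadjusted p = 0.000504). Dusp14, a phosphatase that restrains MAP kinases, stood at 97.1, 79.1 and 57.8 CPM after injury and at 48.5, 57.4, 64.0 and 49.7 CPM in Sham (0.51 ± 0.16, unadjusted p = 0.0028). Arl4d, an ARF-like GTPase, stood at 70.2, 51.6 and 21.2 CPM after injury and at 16.5, 34.2, 18.9 and 22.1 CPM in Sham (1.05 ± 0.39, unadjusted p = 0.0122). The highest of the 7 mice for both were samples 13 and 14, and sample 27 lay within the sham range. Gem, a small GTPase that inhibits calcium channels (1.13 ± 0.39), and Errfi1, an inhibitor of the EGF receptor (0.31 ± 0.14), were the others at unadjusted p under 0.05. The negative feedback genes Dusp1, Dusp6 and Spry4 had log2 differences of 0.01, -0.20 and -0.14.

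**Figure D3:**
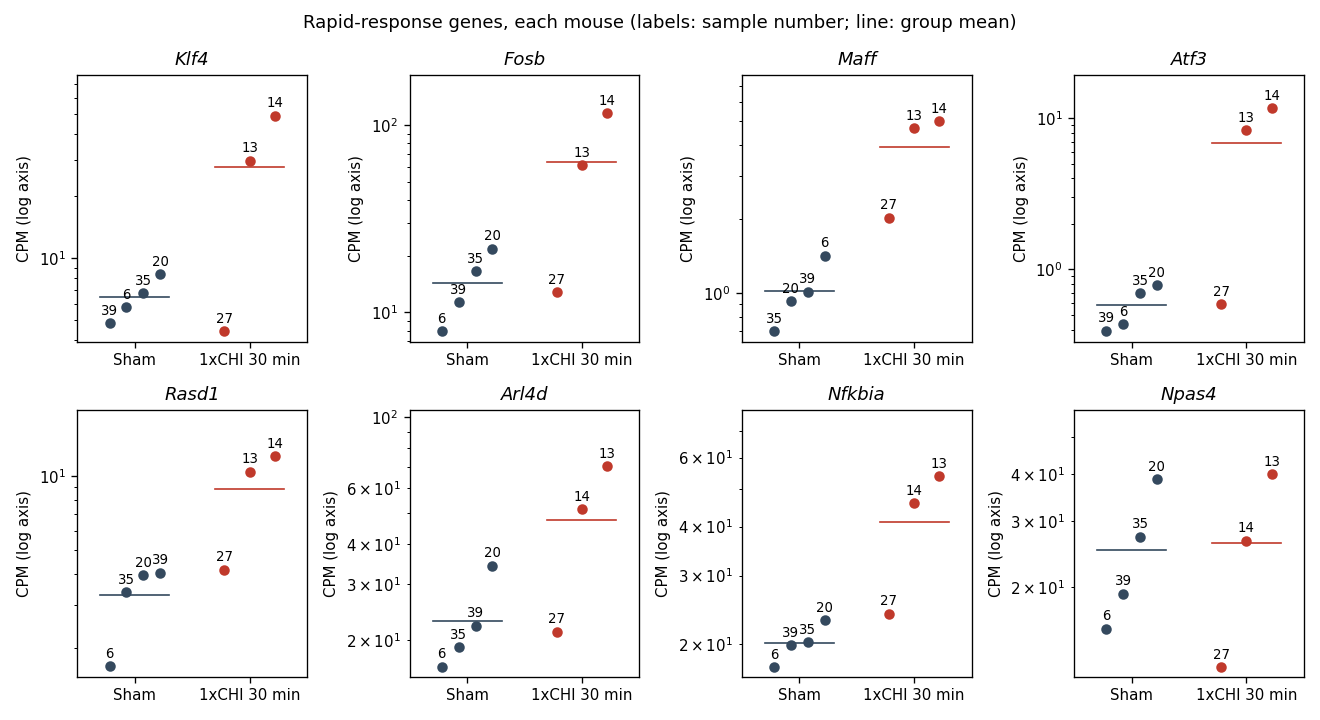
CPM of 8 rapid-response genes in each mouse (log axes; blue points, Sham; red points, 1xCHI 30 min; numbers, sample numbers; lines, group means). Samples 13 and 14 sit above every sham mouse in Klf4, Fosb, Maff, Atf3, Rasd1, Arl4d and Nfkbia, sample 27 sits among or near the sham mice in most, and in Npas4 the groups overlap (12.3 to 39.9 CPM against 15.5 to 38.6 CPM).

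The promoters of 3 early response genes were picked, after the motifs had been searched, because they hold short motifs of the factors that drive early transcription, the cAMP response element (CRE) of CREB and an NF-kB motif. The sequences are RefSeq's for build GRCm38.p6, cover 250 bases before to 50 bases after the start, run 5′ to 3′ on the gene's strand, and carry the motif in capitals. The Maff start at chr15:79347270-79347569 (+) has a CRE at -29 to -22, the Arl4d start at chr11:101665291-101665590 (+) has one at -26 to -19, and Nfkbia at chr12:55492598-55492897 (-) has an NF-kB motif at -29 to -20.
Maff: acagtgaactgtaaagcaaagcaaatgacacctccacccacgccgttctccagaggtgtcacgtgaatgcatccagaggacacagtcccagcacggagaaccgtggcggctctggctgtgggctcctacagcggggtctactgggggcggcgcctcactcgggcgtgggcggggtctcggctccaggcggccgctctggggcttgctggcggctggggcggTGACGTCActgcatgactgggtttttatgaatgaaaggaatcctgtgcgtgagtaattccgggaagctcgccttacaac
Arl4d: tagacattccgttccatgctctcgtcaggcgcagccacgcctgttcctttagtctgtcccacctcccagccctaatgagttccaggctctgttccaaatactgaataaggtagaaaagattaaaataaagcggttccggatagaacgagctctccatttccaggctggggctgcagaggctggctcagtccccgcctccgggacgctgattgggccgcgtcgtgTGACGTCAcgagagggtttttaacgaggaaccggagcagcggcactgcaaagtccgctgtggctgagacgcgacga
Nfkbia: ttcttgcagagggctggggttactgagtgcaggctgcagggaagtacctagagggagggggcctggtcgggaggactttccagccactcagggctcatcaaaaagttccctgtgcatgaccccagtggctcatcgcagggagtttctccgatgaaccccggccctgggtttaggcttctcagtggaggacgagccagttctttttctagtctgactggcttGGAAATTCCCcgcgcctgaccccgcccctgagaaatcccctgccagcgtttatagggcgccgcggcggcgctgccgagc
The CRE was searched as TGACGTCA, which reads the same on both strands, and was found in 588 of 32851 promoters (1.79%) and in promoters of 8 of the 42 immediate early genes that the table holds. The NF-kB motif, searched on both strands, was found in 2779 promoters (8.46%) and for 9 of the 42. Nfkbia is not one of the 42. Also searched on both strands were the serum response element, found in 1.63% of all promoters and for 3 of the 42, the AP-1 motif (TGACTCA or TGAGTCA) in 5.20% and for 1, and the TATA box (TATAAA) in 13.6% and for 9. The shares over all are of promoter entries, whereas each of the 42 genes is counted if any of its starts has the motif. These are unlike measures and cannot be set against each other. The matches are a description of the letters and not of binding. Maff was higher in all 3 injured mice and Arl4d in samples 13 and 14, so the same motif was present in genes with unlike values in sample 27. Maff has 3 starts in the table, of which only the start shown has a CRE and another has an NF-kB motif at -70 to -61. Fosb has an NF-kB motif at -188 to -179, and Klf4 has neither motif in its window. The table holds no promoter for Rasd1 or Gem.

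Glucocorticoid and stress response genes differed from the immediate early genes in that sample 27 was high too. Of 15 genes, 6 were higher and none lower at unadjusted p under 0.05, beside 13.0% and 6.71% of all genes, 5 of the 15 did not overlap between the groups (against 4.60% of all genes), and the median log2 difference was 0.56. The median was 0.65 for samples 13 and 14 against Sham 6 and 0.44 for sample 27 against Sham 20, 35 and 39. Without sample 13 or without sample 14, 2 and 3 genes were higher, beside 2.23% and 7.24% of all genes, with medians of 0.55 and 0.56. Corticosterone, the stress hormone of mice, acts through a receptor that binds many of these genes directly.

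Ddit4, an inhibitor of the mTOR kinase, stood at 63.3, 64.7 and 37.0 CPM after injury and at 30.9, 35.8, 27.8 and 29.4 CPM in Sham (0.83 ± 0.30, unadjusted p = 0.0096). Arrdc2, an arrestin-domain protein, stood at 27.4, 20.2 and 17.9 CPM after injury and at 11.8, 16.4, 10.2 and 10.1 CPM in Sham (0.84 ± 0.30, unadjusted p = 0.00845). Mt2, a zinc-binding metallothionein, stood at 111.1, 131.2 and 95.6 CPM after injury and at 76.9, 60.3, 51.9 and 58.4 CPM in Sham (0.86 ± 0.39, unadjusted p = 0.0324). In all of them every injured mouse was above every sham mouse. Its neighbour Mt1 did not overlap either, at 187.2, 185.1 and 122.3 CPM against 86.5 to 114.5 CPM, but did not pass (0.77 ± 0.40, unadjusted p = 0.0661). Map3k6, a stress-activated kinase, also did not overlap (0.91 ± 0.40). Tsc22d3, also called Gilz, a mediator of glucocorticoid action on the X chromosome, stood at 112.0, 117.3 and 98.1 CPM after injury and at 61.2, 102.7, 70.0 and 70.3 CPM in Sham, where Sham 20 reached the injured range (0.52 ± 0.17, unadjusted p = 0.00532). The cell cycle inhibitor Cdkn1a stood at 49.1, 44.1 and 25.3 CPM and at 17.3, 22.3, 30.1 and 13.4 CPM (0.93 ± 0.37).

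Other genes of this list were high in sample 27 alone. Plin4, a lipid droplet protein, stood at 4.90, 9.95 and 38.8 CPM in samples 13, 14 and 27 and at 6.25 to 13.5 CPM in Sham. Fkbp5, a chaperone that dampens the glucocorticoid receptor, stood at 22.5, 27.0 and 51.3 CPM and at 22.2 to 30.9 CPM. Hif3a stood at 8.17, 8.71 and 19.1 CPM and at 8.79 to 10.8 CPM. None of these passed unadjusted p under 0.05 over all mice, and without sample 27 Plin4 and Fkbp5 had log2 differences of -0.25 and -0.11. At 4 h after the same injury, Plin4 stood at 14.5 to 29.5 CPM and Fkbp5 at 35.0 to 73.0 CPM in all 3 mice. Sample 27 lay above the 4 h range of Plin4 and inside that of Fkbp5, and samples 13 and 14 lay below both ranges.

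Of 12 heat shock genes, 3 were higher and none lower, beside 13.0% and 6.71% of all genes, with a median of 0.23. None was higher without sample 13 or without sample 14, beside 2.23% and 7.24% of all genes. The 3 higher genes were Hspb1, a small heat shock protein (1.16 ± 0.49), Hspa5, the chaperone of the endoplasmic reticulum (0.32 ± 0.14), and Hspe1, a mitochondrial cochaperonin (0.40 ± 0.15). The inducible Hspa1a and Hspa1b did not pass (unadjusted p = 0.14 and 0.0783). The median was 0.40 for samples 13 and 14 against Sham 6 and -0.02 for sample 27 against Sham 20, 35 and 39.

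Cytokine mRNAs themselves were at or near the floor of these libraries. Of the 31 genes in the list of cytokines, chemokines and NF-kB feedback genes, 19 did not pass the filter on low counts, and Il17a, Il10, Cxcl2, Il13 and Il9 had no count in any of the 7 mice. Il1b stood at 0.288, 0.255 and 0.481 CPM after injury and at 0.113 to 0.699 CPM in Sham, and Il6 and Tnf at no more than 0.267 CPM in any mouse. Of the 19 untested members, the chemokine genes Ccl2, Ccl7 and Ccl3 had every injured mouse above every sham mouse and were singled out after their values were seen. Ccl7 stood at 0.24, 1.96 and 0.267 CPM after injury and at 0 to 0.0563 CPM in Sham, which is 0 or 1 count, and Ccl3 at 0.24, 0.468 and 0.747 CPM and at 0.0537 to 0.143 CPM. Such low counts do not allow a comparison.

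Of the 12 members that could be tested, 4 were higher and 1 lower, beside 13.0% and 6.71% of all genes, and the median was 0.06. Nfkbia, which encodes the inhibitor that holds NF-kB in the cytoplasm (chr12:55489410-55492647), stood at 53.7, 45.8 and 24.0 CPM after injury and at 17.5, 23.1, 20.3 and 19.9 CPM in Sham. The groups did not overlap, with sample 27 just above Sham 20 (1.03 ± 0.29, unadjusted p = 0.00149). Socs3, an inhibitor of cytokine receptors, stood at 7.35, 13.9 and 3.42 CPM after injury and at 2.62, 3.82, 2.79 and 4.17 CPM in Sham (1.29 ± 0.49, unadjusted p = 0.0127), with sample 27 in the sham range. Zfp36, which promotes decay of cytokine mRNAs, was far above Sham in sample 14 and just above or within it in the other injured mice, at 4.37, 13.4 and 3.52 CPM beside 2.48 to 3.61 CPM in Sham (1.19 ± 0.58, unadjusted p = 0.0485). Nfkbiz had a log2 difference of 0.55 ± 0.26. Tnfaip3, an NF-kB inhibitor that edits ubiquitin chains, was lower, at 2.74, 3.87 and 4.70 CPM beside 4.86 to 7.04 CPM in Sham without overlap (-0.59 ± 0.25, unadjusted p = 0.0253).

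**Figure D4:**
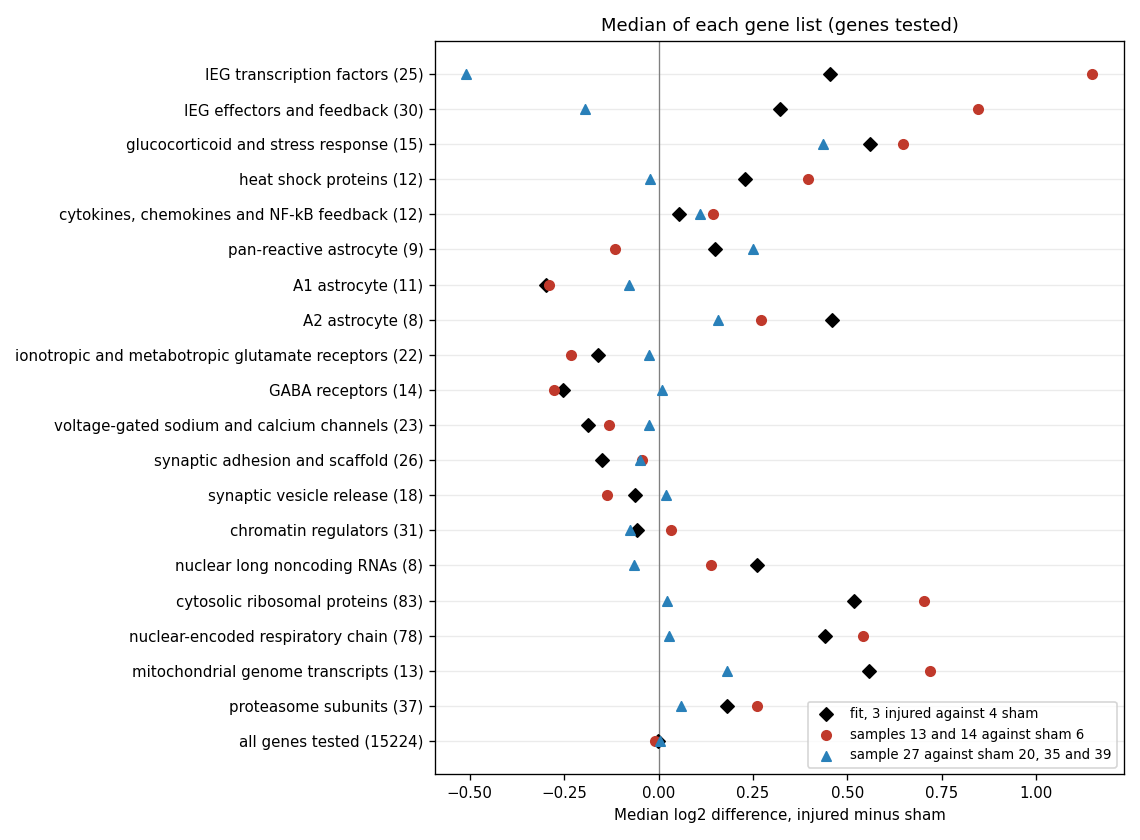
Median log2 difference of each gene list, 1xCHI 30 min minus Sham (x axis; numbers in brackets, genes tested; diamonds, fit over 3 injured and 4 sham mice; circles, samples 13 and 14 against Sham 6; triangles, sample 27 against Sham 20, 35 and 39). The immediate early lists lie at 1.15 and 0.85 for the circles and at -0.51 and -0.19 for the triangles, and the glucocorticoid list lies at 0.65 and 0.44.

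Reactive astrocyte lists went in different directions, with medians of 0.15 for the pan-reactive, -0.30 for the A1 and 0.46 for the A2 genes tested. The median of the 9 pan-reactive genes was -0.17 without sample 27 and -0.12 for samples 13 and 14 against Sham 6. Of the 9, 1 was higher at unadjusted p under 0.05, a share near the 13.0% of all genes, namely Hspb1, which the heat shock list also holds. Gfap, the intermediate filament of reactive astrocytes, stood at 144.9, 168.0 and 169.5 CPM after injury and at 147.8, 174.5, 133.0 and 124.7 CPM in Sham (0.15 ± 0.72, unadjusted p = 0.839). The groups overlapped fully for Gfap. Of 11 genes of the A1 set, named for a neurotoxic state, 1 was higher and 1 lower, near the 13.0% and 6.71% of all genes. Srgn was higher (0.52 ± 0.24) and Iigp1, an interferon-induced GTPase, was lower. Iigp1 stood at 0.433, 0.595 and 0.801 CPM after injury and at 3.00, 0.964, 2.26 and 1.86 CPM in Sham, without overlap (-1.71 ± 0.55, unadjusted p = 0.00415). Of 8 genes of the A2 set, 7 had a difference above 0 and 2, S100a10 and Cd14, did not overlap, beside 4.60% of all genes. The median was 0.26 with the length and GC trends taken out, when no A2 gene passed. S100a10, a calcium-binding protein, was the 1 gene of the 8 that was higher, a share near the 13.0% of all genes. It stood at 22.1, 17.7 and 16.8 CPM after injury, beside 13.0 to 13.9 CPM in Sham (0.49 ± 0.19, unadjusted p = 0.0157).

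Outside the lists, 502 genes of at least 5 CPM were higher in every injured mouse than in every sham mouse and 474 were lower, of which 32 and 20 were predicted genes or pseudogenes. By p, the leading higher genes were Rprml, Gpr27, Snrpd1, Rpain, Abracl, Snrpd3, Aarsd1, Akirin2, Utp3 and Tbca, and by size of change they were Romo1, Zfas1, Btg3, Ccdc34 and Polr2h. Rprml, a relative of the p53 target reprimo (chr11:103649570-103650579), stood at 81.4, 64.4 and 43.6 CPM after injury and at 38.4, 42.5, 39.2 and 37.1 CPM in Sham (0.69 ± 0.15, unadjusted p = 6.89e-05). Gpr27, an orphan receptor, stood at 40.8, 38.4 and 32.7 CPM after injury and at 24.5, 29.6, 30.4 and 29.1 CPM in Sham (0.39 ± 0.09, unadjusted p = 0.000112). Sample 27 was the lowest injured mouse for both.

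Snrpd1 and Snrpd3 encode Sm proteins of the spliceosome, with log2 differences of 0.54 ± 0.13 and 0.32 ± 0.08. Polr2h, an RNA polymerase subunit shared by the 3 nuclear enzymes, had one of 0.69 ± 0.19, and Utp3, a factor of ribosomal RNA processing, one of 0.31 ± 0.08. Romo1, a small protein of the mitochondrial inner membrane, had the largest, at 32.5, 23.7 and 15.4 CPM after injury and 13.8, 9.82, 15.2 and 13.9 CPM in Sham (0.86 ± 0.23). Sample 27 and Sham 35 were nearly level for Romo1. Akirin2, a nuclear protein needed for NF-kB target genes and for import of proteasomes, stood at 72.7, 65.9 and 54.8 CPM beside 43.5 to 52.1 CPM in Sham (0.41 ± 0.11). Zfas1 is a noncoding RNA that hosts small nucleolar RNAs, and stood at 30.0, 23.7 and 16.23 CPM beside 12.8 to 16.21 CPM in Sham (0.74 ± 0.25).

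The leading lower genes by p were Zkscan7, Hhip, Sema6d, Klhl42, Natd1, Bche, Csmd3, Limch1, Apbb2 and Lpp, and by size of change Bche, Soga1, Onecut2, Jag1 and Mycn. The rule took only genes in which every injured mouse lay below every sham mouse, so that low values in sample 27 follow from it. Bche, which encodes butyrylcholinesterase, stood at 3.89, 4.21 and 4.38 CPM after injury and at 9.44, 6.29, 9.73 and 8.28 CPM in Sham (-1.01 ± 0.27, unadjusted p = 0.000617). Hhip, a decoy receptor for hedgehog ligands (chr8:79965851-80058006), stood at 4.71, 6.67 and 5.39 CPM after injury and at 9.00, 9.75, 9.89 and 9.63 CPM in Sham (-0.77 ± 0.18, unadjusted p = 0.000208). Sema6d, a transmembrane semaphorin that guides axons, stood at 39.0, 45.3 and 47.0 CPM after injury and at 66.3, 62.4, 64.3 and 65.7 CPM in Sham (-0.56 ± 0.14, unadjusted p = 0.000259).

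The differences of sample 27 from Sham 20, 35 and 39 were -0.80 for both Bche and Hhip and -0.44 for Sema6d on the log2 scale, and those of samples 13 and 14 from Sham 6 were -1.13, -0.64 and -0.65. For Jag1, a Notch ligand (-0.80 ± 0.23), they were -0.51 and -1.17, and for Onecut2, a homeobox transcription factor (-0.85 ± 0.31), -0.76 and -0.88. Against the sham mice of its own range of numbers, sample 27 thus differed less than samples 13 and 14 in Bche, Sema6d, Jag1 and Onecut2. It differed more in Hhip. These differences are from different sham mice. In CPM, sample 27 lay between samples 13 and 14 for Hhip, Jag1 and Onecut2 and above both for Bche and Sema6d. Zkscan7, a zinc finger gene (chr9:122885685-122898618), stood at 3.22, 3.78 and 5.71 CPM after injury and at 6.44, 7.32, 6.66 and 7.66 CPM in Sham (-0.73 ± 0.17, unadjusted p = 0.000179). Here sample 27 lay between the other injured mice and the sham mice. Limch1, an actomyosin regulator, had the smallest change of the named lower genes, at 62.4, 63.4 and 76.6 CPM beside 81.9 to 98.6 CPM in Sham (-0.37 ± 0.10).

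Neuronal and synaptic lists had medians below 0 without many single genes passing. Median log2 differences were -0.16 for 22 glutamate receptor genes, -0.25 for 14 GABA receptor genes, -0.19 for 23 sodium and calcium channel genes and -0.15 for 26 synaptic adhesion and scaffold genes, with 1, 0, 3 and 1 lower at unadjusted p under 0.05, beside 6.71% of all genes, and none higher. With scaling by library size alone, 6, 5, 4 and 2 were lower and none higher, beside 2114 and 1111 of all 15224 genes. The channel genes that were lower in the main fit were Scn1a, a sodium channel of inhibitory neurons (-0.59 ± 0.27), Cacna2d3, an auxiliary calcium channel subunit (-0.54 ± 0.24), and Scn4b (-1.24 ± 0.57). Scn4b, an auxiliary sodium channel subunit, stood at 34.9, 45.9 and 96.7 CPM after injury and at 93.7, 94.9, 111.2 and 257.8 CPM in Sham. The highest value was that of Sham 39, the mouse with the high striatum markers. Without Sham 39, the log2 difference of Scn4b was -0.76. No channel gene then passed unadjusted p under 0.05, beside 1391 of all 15224 genes higher and 578 lower.

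Gabrb2, a GABA-A receptor subunit, stood at 11.5, 22.4 and 96.2 CPM after injury and at 67.0, 54.3, 123.3 and 132.8 CPM in Sham (-1.12 ± 0.72, unadjusted p = 0.128). Samples 13 and 14 were the lowest of the 7 mice, and sample 27 lay within the sham range. Without sample 27, 2 glutamate receptor, 4 GABA receptor and 6 channel genes and no adhesion gene were called lower, and 1 glutamate receptor and 1 channel gene higher, at adjusted p under 0.05 by edgeR's quasi-likelihood test, beside 10.6% and 13.0% of all genes. Without sample 13 or without sample 14, no gene of these 4 lists passed unadjusted p under 0.05. Of all 15224 genes, 340 and 1102 were then higher and 236 and 338 lower. With the length and GC trends taken out, the medians were -0.032 for glutamate receptors, -0.11 for GABA receptors, -0.037 for channels and 0.029 for adhesion genes, with 4, 1, 3 and 4 higher and 0, 0, 3 and 0 lower at unadjusted p under 0.05, beside 11.8% and 4.50% of all genes in that setting. Vesicle release genes had a median of -0.06, and 2 of 18 were higher, a share below the 13.0% of all genes. They were Rab3a (0.25 ± 0.09) and Syp (0.19 ± 0.08), which encode vesicle proteins. Among 31 chromatin regulators, Setd1b, Kmt2c and Arid1b were lower, Smarca4 was higher, beside 6.71% and 13.0% of all genes, and 3 did not overlap, all lower, beside 4.13%. With the length and GC trends taken out the split turned to 11 higher and 1 lower, beside 11.8% and 4.50% of all genes, with a median of 0.17. Of 8 nuclear long noncoding RNAs, 2 were higher, Mirg (0.79 ± 0.28) and Kcnq1ot1 (0.67 ± 0.27), beside 13.0% of all genes.

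Markers of cell types were read in the same mice. Leukocyte markers summed to 3.65 to 6.06 CPM in every mouse, with 3 to 5 of 10 genes at 0, and did not separate the groups. Neuron markers summed to 11090 and 11260 CPM in samples 13 and 14, 13560 CPM in sample 27, and 12330 to 14310 CPM in Sham. Of 15 neuron markers, 4 had a difference above 0 and the median was -0.15, with 2 lower and 1 higher at unadjusted p under 0.05, beside 6.71% and 13.0% of all genes. Gad2, the synaptic isoform of the GABA-synthesizing enzyme (-0.53 ± 0.25), and Slc32a1, the vesicular GABA transporter (-0.33 ± 0.16), were lower and Rbfox3, the gene of NeuN, was higher (0.25 ± 0.12). Of 14 astrocyte markers, the glutamate transporter Slc1a2 (-0.48 ± 0.20) and the bicarbonate transporter Slc4a4 (-0.65 ± 0.24) were lower, S100b was higher (0.36 ± 0.17), and the list median was -0.06, so that 2 were lower and 1 higher, beside 6.71% and 13.0% of all genes. No microglia marker of 18 and no oligodendrocyte marker of 12 passed unadjusted p under 0.05, beside 13.0% higher and 6.71% lower of all genes. Of 15 endothelial markers, 3 were higher and 1 lower, shares near those of all genes (13.0% and 6.71%), with a median of -0.26 that became 0.037 without Sham 6. Slc2a1, the glucose transporter of the blood-brain barrier, was higher without overlap, at 92.3, 95.5 and 81.4 CPM beside 61.7 to 70.9 CPM in Sham (0.45 ± 0.18), and Kdr, a VEGF receptor, was lower (-0.81 ± 0.28). Sham 6 had the highest summed endothelial markers, 479.5 CPM beside 290.8 to 379.2 CPM in the other 6 mice.

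The transgene could be read in part. Human MAPT, the tau transgene, stood at 6.15, 7.10 and 20.5 CPM after injury and at 14.9, 21.3, 23.5 and 32.7 CPM in Sham (-1.05 ± 0.51, unadjusted p = 0.048). Samples 13 and 14 were the lowest of the 7 mice and sample 27 lay within the sham range. Human APP was listed at 0 in all 7 mice.

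Against mice killed 4 h after the same injury, which share no sham sample with the comparison above but share its 3 injured mice, 4 genes were called at adjusted p under 0.05 (0.0263%). At unadjusted p under 0.05, 539 genes were higher at 30 min (3.54%) and 681 lower (4.47%). Zkscan7 was lower at 30 min, at 3.22, 3.78 and 5.71 CPM beside 6.53, 10.7 and 8.16 CPM at 4 h, and so was Gbp6, an interferon-induced GTPase, at 1.44, 1.49 and 1.12 CPM beside 7.98, 4.31 and 3.85 CPM. The groups did not overlap for either (log2 differences -1.0 ± 0.18 and -1.99 ± 0.38, both adjusted p = 0.0456 by edgeR's quasi-likelihood test). Dnajc21, a cochaperone of ribosome assembly (0.73 ± 0.14), and Dpf1, a subunit of a neuronal chromatin remodeler (0.67 ± 0.13), were higher with the same adjusted p. Gbp6 has near-identical neighbours, so reads may be split between copies. The count was 0 without sample 13 or without sample 14, 197 without sample 27, and 11 without sample 36 of the 4 h group. The 15 meningeal fibroblast markers had a median of -1.13 against 4 h, with 10 lower at unadjusted p under 0.05, beside -0.16 and none against Sham.

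Some immediate early genes were higher at 30 min than at the later times. Of 25 transcription factor genes, 11 were higher than at 4 h and 12 higher than at 24 h at unadjusted p under 0.05, and of 30 effectors 12 and 19, with none lower in either, beside 3.54% and 3.53% of all genes that were higher. Klf4 stood at 4.36 to 7.83 CPM in the 4 h mice and at 4.40 to 11.9 CPM in the 24 h mice, levels near those of Sham and of sample 27 (4.43 CPM). Fos stood at 13.9 to 29.5 CPM at 4 h, with sample 27 at 14.3 CPM inside that range, and Npas4 at 18.3 to 30.5 CPM, so that its means at 30 min and 4 h were 26.3 and 25.5 CPM. Against 24 h no gene was called at adjusted p under 0.05 (0%), 538 were higher (3.53%) and 445 lower (2.92%) at unadjusted p under 0.05, and the smallest adjusted p was 0.0696 for Kcnn2, a calcium-activated potassium channel gene, while DESeq2 called 8. Without sample 27, 96 genes were called against 24 h. Glucocorticoid and stress genes were higher than at 24 h in 10 of 15 and than at 4 h in 2 of 15. The mitochondrial genome list did not part from the later times in the same way: mt-Nd2 stood at 5650, 5191 and 3979 CPM at 4 h and at 4029 to 5138 CPM at 24 h, and 0 and 2 of 13 genes were higher at 30 min.

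The response to the first injury was set against that to later ones as a difference of differences. For the third injury the response was 3xCHI 0.5 h minus 2xCHI 24 h, that is, mice killed 30 min after the third injury against mice killed 24 h after the second, and for the fifth it was 5xCHI 0.5 h minus 4xCHI 24 h, with 3 mice in each of these groups. No gene was called at adjusted p under 0.05 for either (0% for both) by edgeR's quasi-likelihood test, nor by DESeq2. At unadjusted p under 0.05, 589 genes had a higher response to the first than to the third injury (3.87%) and 374 a lower one (2.46%), and for the fifth the counts were 455 (2.99%) and 284 (1.87%). Both comparisons share the 7 mice of the first response.

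At unadjusted p under 0.05, the mitochondrial genome response was higher to the first than to the third injury for 12 of 13 genes. The share of all genes was 3.87%, and the median difference of the list was 0.66. Against the fifth injury the response was higher for none of 13, beside 2.99% of all genes, with a median of 0.34. mt-Nd2 stood at 3726, 3398 and 3844 CPM 30 min after the third injury and at 3380, 4491 and 4283 CPM 24 h after the second. The former were near the sham level, and of the latter, the baseline of that response, 4491 and 4283 CPM lay above every sham mouse and above sample 27. Among respiratory chain genes 29 of 78, and among ribosomal protein genes 19 of 83, had a higher response to the first than to the third injury, beside 3.87% of all genes. Against the fifth injury the counts were 12 of 78 and 8 of 83, beside 2.99%. The 2xCHI 24 h mice, samples 19, 21 and 29, were all numbered 19 or higher, and the part of this in the list counts was not tested. Klf4 also had a higher response (1.53, unadjusted p = 0.0213), at 9.59, 11.3 and 10.3 CPM 30 min after the third injury and 4.84 to 8.71 CPM 24 h after the second.

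Npas4 went the other way. It stood at 466.4, 14.5 and 556.2 CPM 30 min after the third injury and at 14.4, 16.8 and 7.90 CPM 24 h after the second, and at 12.8, 321.8 and 22.1 CPM 30 min after the fifth. After the first injury no mouse was above 39.9 CPM. Its response to the first injury minus that to the third was -4.67 on the log2 scale (unadjusted p = 0.000412, adjusted p = 0.448 by edgeR's quasi-likelihood test). Each of the 3 groups killed at 30 min thus held mice with unlike levels of activity genes, among them Fosb at 172.2, 24.3 and 227.3 CPM after the third and 22.5, 207.5 and 19.1 CPM after the fifth injury.

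**Figure D5:**
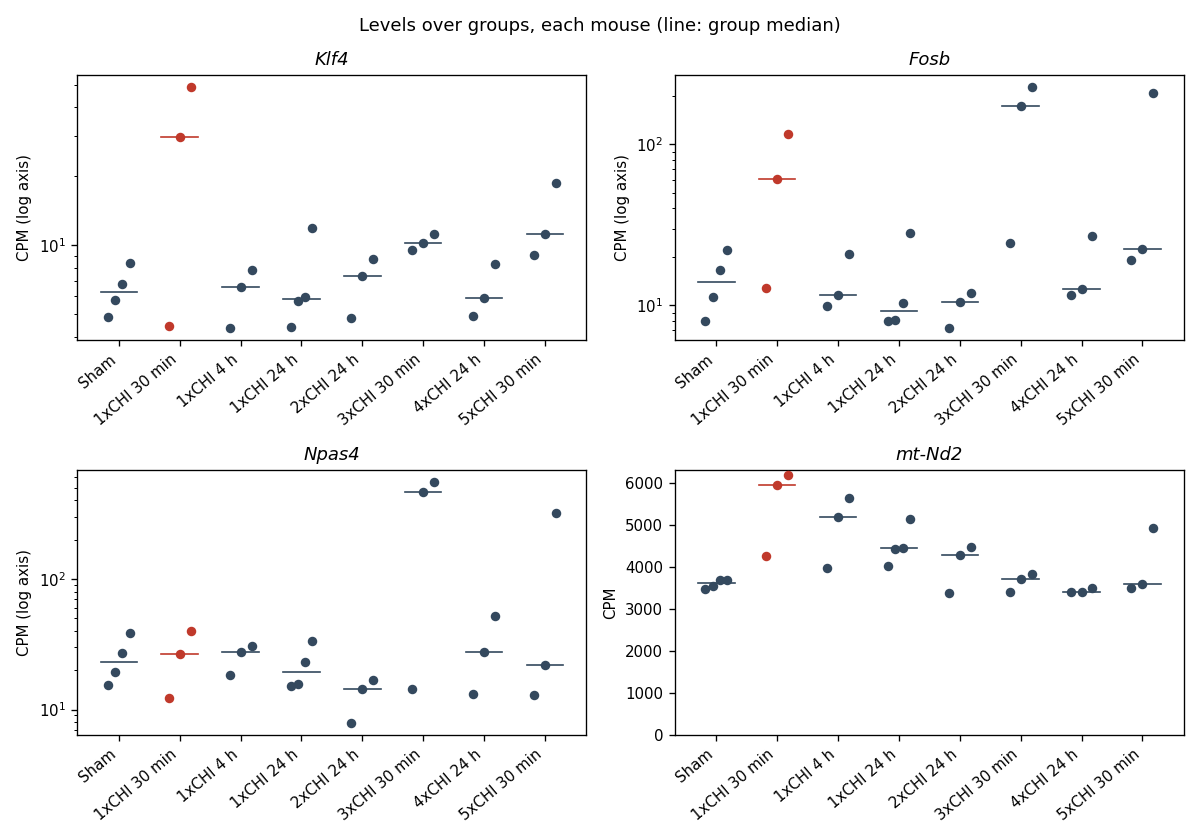
CPM of Klf4, Fosb and Npas4 (log axes) and mt-Nd2 (linear axis from 0) in each mouse over 8 groups (points, mice; lines, group medians; red, 1xCHI 30 min). Klf4 reaches 29.8 and 49.2 CPM in samples 13 and 14 and no more than 18.7 CPM in any other mouse shown, whereas Npas4 is above 51.8 CPM only in mice killed 30 min after the third or the fifth injury.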

How the data were processed

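RNA from 40 samples of left somatomotor cortex was sequenced, aligned and counted by a sequencing company. The values deposited by the authors are estimated counts per gene, not normalized, in a table of 55539 features. The submitters' processing notes name build mm10, and the counting tool and its version are not given in the sources used here. About 4.46% of values were not whole, and they were rounded for the tests. Sample 30 was left out, as in the study. After the wording of its filter, a feature was dropped when over 4 of the 39 samples held under 10 counts, which left 15224, not the number its methods give. edgeR 4.0.16 in R 4.3.3 (TMM scaling, quasi-likelihood test, 1 mean per group over all 39 samples, no covariate) was the main test, with Benjamini-Hochberg adjustment over all genes tested and a threshold of 0.05. DESeq2 1.42.0 was an alternative. CPM are rounded counts per 1000000 of the counts in tested genes, after TMM. Differences within sample numbers 1 to 18 and 19 to 40 are of log2(CPM + 0.5), which understates changes of low genes, and have no test. Coordinates and transcript lengths are from GENCODE M21 (build GRCm38, the same assembly as mm10), matched for 15215 genes.

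Gene lists and named genes were chosen with earlier results of these data known. Outside the lists, among genes with a mean of at least 5 CPM over the 7 samples and no overlap between groups, the 10 higher and 10 lower with the smallest p and the 5 with the largest fold change each way (at p under 0.05) were named, predicted genes and pseudogenes left out. Lists are described by counts and medians, and no set test was run. Alternatives were other scalings, filters and sample sets, terms for sample number, and each mouse left out. Replicates were checked pair by pair, and no pair agreed within sampling noise. Depth limits low genes, since 1 count is 0.0357 to 0.0563 CPM in these 7 libraries.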

Additional observations from a re-analysis of the deposited data

Results flagged for a closer look

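Sham values were looked at for 1 mouse far from the other 3, by Dixon's test at the 95% level, over 134 sets of 4 sham values, and 11 stood out, where chance would single out about 1 in 20 sets, or 6.7. The injured group of 3 was not tested.

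Sham 20 was far from the other sham mice in 6 of them. It was high in Junb (131.2 CPM) and in mt-Nd4 (5952 CPM), mt-Co1 (19340 CPM) and mt-Co3 (4564 CPM), and the summed mitochondrial genome transcripts were 57680 CPM in it. In mt-Atp8, at 137.2 CPM, it was low. Sham 39 was high in Scn4b (257.8 CPM), in Limch1 (98.6 CPM) and in the summed striatum markers (924.8 CPM). Sham 6 was low in Mycn (5.73 CPM) and high in the summed meningeal fibroblast markers (1129 CPM). The part of tissue taken beyond the cortex in these values was not tested.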

How the results depend on the processing

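Leaving out sample 13 or sample 27 moved most counts the furthest. Leaving out 1 mouse at a time gave 0 to 3601 calls at adjusted p under 0.05 for 1xCHI 0.5 h against Sham, with 340 to 3110 genes higher and 236 to 2972 lower at unadjusted p under 0.05, the highest without sample 27 and the lowest without sample 13. Against 4 h it gave 0 to 197 calls and 611 to 3214 genes at unadjusted p under 0.05, against 24 h 0 to 96 and 447 to 3302, for the first against the third injury 0 to 2 and 367 to 2854, and for the first against the fifth 386 to 2089 at unadjusted p. DESeq2 called 28 genes against Sham, 17 against 4 h and 8 against 24 h. Scaling by library size gave 1111 higher and 2114 lower against Sham. Samples 1 to 18 as a term gave 1170 higher, and the 7 samples alone with that term 396 higher and 612 lower. The 4 calls against 4 h became 0 with library size scaling, with a filter of 10 counts in 3 samples and with the compared groups only, and 2 with sample number as a term, and the compared groups only gave 403 genes at unadjusted p. Against 24 h there was 1 call with median-of-ratios scaling, all 40 samples, either term for sample number, and the length and GC trends taken out. At unadjusted p, the first against the third injury gave 1547 genes with no filter, 2046 with samples 1 to 18 as a term and 1798 with sample number as a term, and the first against the fifth gave 1164, 1418 and 1402. The cause of each shift was not tested, apart from the fewer mice or genes that a setting holds.

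List medians, on the log2 scale, moved as follows. For sample 27 against Sham 20, 35 and 39, the median was -0.51 for immediate early transcription factors, -0.19 for effectors, -0.022 for heat shock, 0.16 for A2, -0.025 for glutamate receptors, 0.0083 for GABA receptors, -0.065 for long noncoding RNAs, 0.022 for ribosomal, 0.027 for respiratory, 0.18 for mitochondrial genome and 0.060 for proteasome genes. For samples 13 and 14 against Sham 6 it was 0.85 for effectors, 0.40 for heat shock, -0.12 for pan-reactive, 0.27 for A2, -0.23 for glutamate receptors, 0.033 for chromatin regulators and 0.26 for proteasome genes. With the length and GC trends taken out, a setting chosen after seeing the data, it was 0.26 for A2, -0.032 for glutamate receptors, 0.029 for adhesion, 0.17 for chromatin regulators, 0.49 for long noncoding RNAs, 0.10 for respiratory, 0.25 for mitochondrial genome and 0.062 for proteasome genes. Leaving out 1 mouse at a time gave 0.11 to 0.34 for heat shock, -0.17 to 0.33 for pan-reactive, -0.28 to -0.12 for glutamate receptor and 0.13 to 0.24 for proteasome genes. The pan-reactive median was -0.10 with samples 1 to 18 as a term and -0.079 with sample number as a term. The A2 median was 0.18 with 10 counts in 3 samples, 0.29 with no filter and 0.26 with samples 1 to 18 as a term. The long noncoding RNA median was 0.067 over the 7 samples with that term. Leaving the mitochondrial genome out before scaling, also chosen after seeing the data, moved none of these counts by over 1.5 times.

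In the main fit against Sham, no named gene passed adjusted p under 0.05, so none could lose that call. Of 1944 values of the 103 named genes under these alternatives, 91 newly passed it (76 without sample 27, 15 by DESeq2) and 13, in 7 genes, changed sign. Of 84 named genes at unadjusted p under 0.05, 51 stayed under it without sample 13, 57 without sample 14, 58 over the 7 samples with samples 1 to 18 as a term, 62 with the length and GC trends taken out, 66 with samples 1 to 18 as a term and 66 without Sham 39, and 72 or more under each other alternative, except that 71 of the 71 tested did with the mitochondrial genome left out. Npas4 was -0.0051 with library size scaling, -0.10 over the 7 samples with samples 1 to 18 as a term, and -0.39 to 0.39 with 1 mouse left out. Arc was -0.89 to 0.15, Plin4 -0.25 to 1.44 and Fkbp5 -0.11 to 0.54 with 1 mouse left out. Gfap was -0.26 and -0.18 with samples 1 to 18 and sample number as a term, Vim was -0.0038 with the former, and mt-Nd3 was -0.055 with the length and GC trends taken out. In 19 of the named genes sample 27 differed from Sham 20, 35 and 39 in the other direction than the fit, and in 2 samples 13 and 14 did so from Sham 6. No paired analysis was possible because the sample numbers run over the whole series and no number is shared between groups. With 3 mice against 4, leaving out 1 mouse changes what can be called, and genes near 1 count in a library cannot be compared.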
